A study of Mus musculus with 19 samples.

Results

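The proteasome subunit and assembly genes were followed across 4 populations of mouse CD4 T cells. Members were the genes whose array name began with Psma, Psmb, Psmc, Psmd, Psme, Psmf or Psmg and a number, and each was read from its brightest probe. The pattern matched 49 genes and 62 probes among the 35019 genes and 55681 probes of the array. Psmc3ip, which is named for an interaction partner and is no part of the proteasome, was set aside, which left 48 genes. Of these, 46 passed the filter on dim probes (well above background on at least 4 of 19 arrays) and were tested among 20620 genes. Psma8, an alpha subunit of the testis, and Psmb11, the catalytic subunit of the thymus, did not pass.

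The cells were taken from adult female C57Bl/6 mice, from spleen and lymph nodes, and the mice carried both Tg IL-2-GFP, a green reporter of the cytokine IL-2, and FOXP3mRFP, a red reporter of the regulatory T cell factor Foxp3. All groups carried both alleles, and colour alone separated them: 5 arrays held GFP-RFP- cells (CD4 T cells without either colour), 5 held GFP+RFP- cells (IL-2 producers), 5 held GFP-RFP+ cells (regulatory T cells) and 4 held GFP+RFP+ cells (regulatory T cells with the IL-2 reporter, replicates 1, 3, 4 and 5). No stimulation is named in the labels, and none of them says whether replicates were separate animals, so each p-value reflects only how far these samples spread, and part of that may be technical. One label calls all samples conventional cells, while the subtype labels call the RFP+ cells regulatory, and groups here follow the colours.

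The proteasome is the protease that degrades proteins tagged with ubiquitin. Its 20S core is a barrel of alpha and beta rings, and the beta subunits Psmb5, Psmb6 and Psmb7 carry the cutting sites. In immune cells these can be replaced by Psmb8, Psmb9 and Psmb10, which form the immunoproteasome and change the peptides offered to CD8 T cells. The 19S cap, made of the ATPases Psmc1 to Psmc6 and of non-ATPase subunits (Psmd), binds and unfolds substrates. Psmd5, Psmd9 and Psmd10 are chaperones of cap assembly and Psmg1 to Psmg4 of core assembly. Psme1, Psme2, Psme3 and Psme4 are activators that open the core without the cap, and Psmf1 is an inhibitor.

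Each value rests on one 60-base probe, and those of 4 called members and of Psmb9 are shown, because the results below turn on them. The probes that gave the values of Psmb5, Psma5 and Psme3 are not printed. They are written in the sense of the transcript, in mm9 coordinates of the array files, and all letters are lower case because no motif is marked. The probes of Psmd8 (chr7:29961170-29962121, reverse strand) and Psmd11 (chr11:80283406-80283920, forward strand) span more than their 60 bases in the genome because they cross an intron. Those of Psma6 (chr12:56511127-56511186, forward), Psmd5 (chr2:34708108-34708167, reverse) and Psmb9 (chr17:34319174-34319233, reverse) cover an unbroken stretch of the genome.
Psmd8: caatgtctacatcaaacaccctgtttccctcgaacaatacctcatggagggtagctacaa
Psmd11: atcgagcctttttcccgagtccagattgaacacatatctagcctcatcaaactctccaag
Psma6: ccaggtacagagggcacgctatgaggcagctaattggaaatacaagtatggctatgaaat
Psmd5: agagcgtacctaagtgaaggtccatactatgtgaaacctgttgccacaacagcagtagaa
Psmb9: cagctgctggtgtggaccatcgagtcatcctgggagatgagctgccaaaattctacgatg

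Psmb8 replaces Psmb5 in the core and is related to it in sequence, so their probes are set side by side. The probe of Psmb8 (chr17:34337771-34337830, forward) and the second probe of Psmb5, which did not give the Psmb5 levels below (chr14:55233161-55233220, reverse) cover related stretches. Aligned without gaps over 50 bases, they shared 31 bases (62.0%), which are in capitals.
Psmb8: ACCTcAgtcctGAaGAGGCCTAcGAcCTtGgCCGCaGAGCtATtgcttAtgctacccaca
Psmb5: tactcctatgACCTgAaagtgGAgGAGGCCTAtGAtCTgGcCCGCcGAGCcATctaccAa

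The arrays differed in how many probes they detected, and this followed the red reporter. Between 22.01% and 44.86% of all probes were well above background per array, with means of 40.6% ± 2.86, 36.9% ± 4.29, 29.6% ± 6.78 and 32.2% ± 4.94 (SD, n = 5, 5, 5 and 4) for the groups in the order given above. The 75th percentile of signal, used to scale the arrays, was also dimmer, by 1.22 on the log2 scale, on RFP+ than on RFP- arrays. Of 6 measured CD4 T cell markers, 4 to 6 were detected per array, with Cd3d, Cd3g, Cd4 and Cd5 on all 19. The linear levels of the 6, relative to the 75th percentile, summed to 6.05 to 6.9, 5.44 to 9.24, 7.82 to 12.4 and 2.53 to 6.13 per array, in that order. Foxp3 was also detected on all 19, at mean log2 levels of -7.89, -7.63, -5.35 and -6.13 in that order, and Gpr83, another marker of regulatory cells, on 4 of 5 GFP-RFP+ arrays, 1 of 5 GFP+RFP- arrays and no others. The other 3 regulatory markers were distributed otherwise. Ctla4 was detected on 5, 5, 3 and 3 arrays of the groups, with mean levels of -2.65, -2.22, -6.29 and -3.08. Il2ra was detected on 1, 1, 1 and 2 arrays (means -9.95, -9.31, -9.06 and -6.31) and Ikzf2 on 1, 3, 2 and 2 (means -10.68, -7.03, -8.07 and -5.64). At most 1 of 2 CD8 T cell markers was detected on any array, but Cd8b1 was detected on 2 of 5 GFP-RFP+ arrays and no others, and the summed linear CD8 level reached 0.841 there against 0.00747 at most in the other groups. Of the 2 NK cell markers, Klrb1c was detected on 12 of 19 arrays (3, 4, 2 and 3 in that order) and Ncr1 on 8 (2, 2, 3 and 1). Their summed linear level was 0.159 at most. The 6 B cell markers were measured too: between 3 and 6, 3 and 5, 0 and 4, and 1 and 3 of them were detected per array, in that order, with Ms4a1 on 1 array in all. Their summed linear level, relative to the 75th percentile, was 1.32 to 2.97, 1.38 to 3.66, 0.00694 to 3.02 and 1.14 to 2.11. Of the 4 erythroid and platelet markers, 1 to 3 were detected per RFP- array and 0 to 2 per RFP+ array, with summed levels of 0.0706 to 8.16 and 0.00453 to 12.5. Of the 6 myeloid and dendritic markers, 3 to 5 were detected on GFP-RFP- and GFP-RFP+ arrays and 4 to 5 on the others. Itgax was detected on none. Their summed level ran from 6.47 to 12.6 on RFP- and from 8.1 to 26.2 on RFP+ arrays. On GFP+RFP+ arrays it was 12 to 26.2, above the CD4 T cell sum on each of them. Itgam was the brightest of the 6, at mean levels of 2.69, 2.98, 3.86 and 4.1 in the group order. Csf1r followed at -0.85, -1.11, -0.76 and -1.02, and the rest had lower means. Sums over different probes do not give shares of cells. The part of other cells in the proteasome results was not tested.

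Proteasome genes were detected on fewer RFP+ than RFP- arrays, and so were genes in general. Fewer cells of a type and less RNA per cell cannot be told apart in these sorted bulk samples. Of the 48 genes, 39 to 43 (median 40) were well above background per GFP-RFP- array and 28 to 42 (median 38) per GFP+RFP- array. The counts were 22 to 38 (median 24) per GFP-RFP+ array and 27 to 37 (median 32) per GFP+RFP+ array. As shares these were 85.4% ± 3.9, 77.1% ± 11.6, 57.5% ± 13.6 and 66.7% ± 8.5 (SD, n = 5, 5, 5 and 4), beside 77.3% ± 3.71, 71.6% ± 6.32, 59.3% ± 11.4 and 63.2% ± 7.27 of the 20620 genes kept. The 48 include Psma8 and Psmb11, which the filter on dim probes left out, while every kept gene passed it. Member shares come out lower for that, so small gaps between the shares cannot be read. One array in each of 2 groups stood apart: GFP+RFP- replicate 4 detected 28 members, and GFP-RFP+ replicate 3 detected 38.

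**Figure D1:**
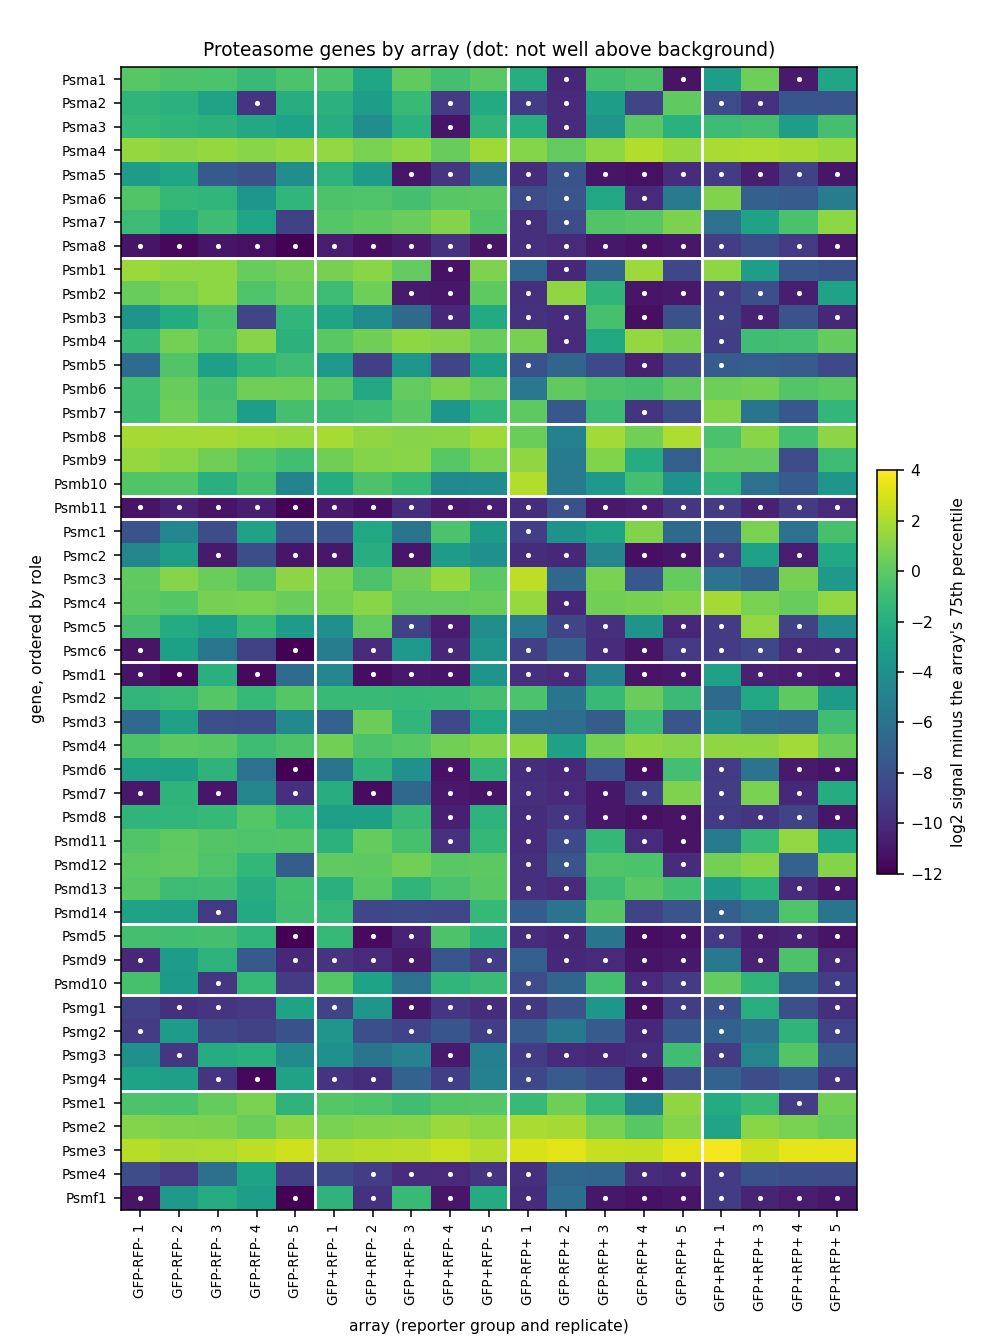
Level of each of the 48 genes (rows, by role) on each of the 19 arrays (columns, by reporter group), as log2 signal minus the array's 75th percentile, with a white dot where the probe was not well above background. Members such as Psme3, Psma4 and Psmb8 were detected on every array, whereas Psmd8 and Psma5 carry a dot on all 9 RFP+ arrays, and Psmb11 carries one on all 19.

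**Figure D2:**
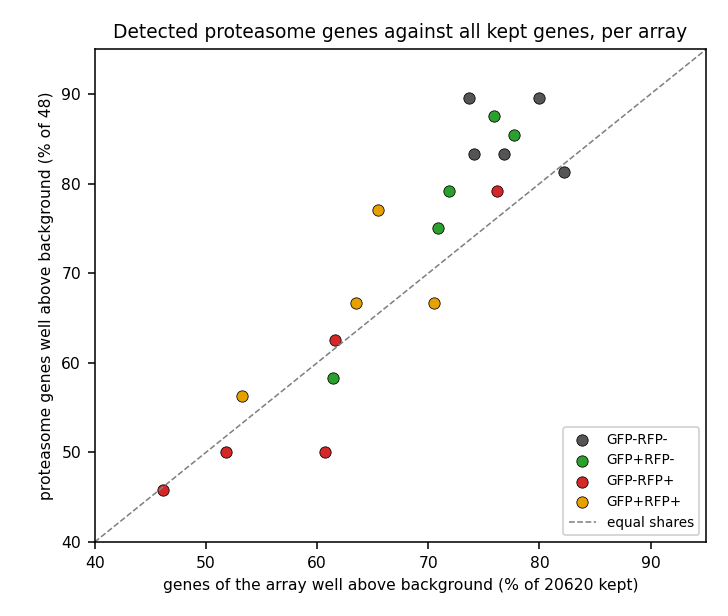
Percent of the 48 proteasome genes (vertical axis) against percent of the 20620 kept genes (horizontal axis) that were well above background, with one point per array coloured by reporter group and a dashed line where both shares are equal. Arrays low in one share were low in the other, from 45.83% of members and 46.18% of genes on GFP-RFP+ replicate 1 to 89.58% and 79.94% on GFP-RFP- replicate 2. The 48 include Psma8 and Psmb11, which are not among the kept genes, so the line does not compare like sets.

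By role, detection differed as follows. All 7 constitutive beta genes were detected on every GFP-RFP- array, against 3 to 7 (median 4) on GFP-RFP+ arrays and 3 to 6 (median 5.5) on GFP+RFP+ arrays. Of the 8 alpha genes, 6 to 7 were detected per GFP-RFP- array and 1 to 6 (median 5) per GFP-RFP+ array. Of the 11 non-ATPases of the cap, 9 to 10 were detected per GFP-RFP- array and 4 to 9 (median 6) per GFP-RFP+ array. Of the 6 ATPases, 4 to 6 were detected per GFP-RFP- array and 3 to 4 per GFP-RFP+ array. All 3 immunoproteasome genes were detected on all 19 arrays. Their log2 differences between RFP+ and RFP- cells were nevertheless all below 0, with medians of -1.78 in green-negative and -2.09 in green-positive cells, and none was called. The other members detected on every array were Psma4, Psmb6, Psmc3, Psmd2, Psmd3, Psmd4, Psme2 and Psme3, so 11 of 48 (22.9%) were, beside 27.5% of the kept genes. Here too the 48 include Psma8 and Psmb11, which are not among the kept genes. Of the 31 genes detected on all GFP-RFP- arrays, 12 were detected on all GFP-RFP+ arrays and 2, Psmd8 and Psma5, on none of them.

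Levels below are on the log2 scale with each array's 75th percentile subtracted, so 0 is the level of that percentile, and a difference of -1 is a 2-fold lower signal. A level flagged as not well above background lies near the detection limit, and such levels have no order among themselves. Comparisons used one limma model of the 4 groups, and a call needed an adjusted p (Benjamini-Hochberg over the 20620 genes) under 0.05.

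The first comparison asked how regulatory T cells differ from other CD4 T cells where neither is green (GFP-RFP+ against GFP-RFP- cells). Psmd8, Psmb5 and Psmd11 were lower in the regulatory cells, and no proteasome gene was called higher. These were 3 of 46 members (6.52%), beside 1.7% of all genes called, 1.23% lower and 0.47% higher. The estimate was below 0 for 41 of 46 members (89.1%), beside 57.1% of all genes, with a median log2 difference of -2.31 against -0.29 for all genes. At an unadjusted p under 0.05 there were 11 members (23.9%), all lower, beside 22.6% of all genes. These shares depended on the scaling: with quantile normalization, 17.1% of all genes were called, 17.8% of them lower in place of 72.4%, and 6 members (13.0%) were called. With the percentile taken over all probes, 19.5% of genes were called, 12.9% of them lower, and 5 members (10.9%), 4 lower and 1 higher. So did the share of estimates below 0: with that percentile 30 of 46 were, with a median of -1.0 against 1.02 for all genes. There were 32 below 0 with the percent of probes detected per array as a covariate (median -1.38), and 29 within slide 1 and within slide 3 (medians -1.08 and -0.75).

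Psmd8, a non-ATPase subunit of the cap, separated the groups without overlap. It measured -1.55, -1.46, -1.28, -0.23 and -1.31 on the 5 GFP-RFP- arrays and -9.93, -9.45, -10.94, -11.29 and -11.13 on the 5 GFP-RFP+ arrays. It was well above background on every one of the former and on none of the latter. The log2 difference was -9.38 ± 1.27 (SE, 95% interval -12.1 to -6.67, limma adjusted p = 0.0034). Because the regulatory cells have only a bound, the signal was at least 223-fold higher in GFP-RFP- cells, taking on each dim array the higher of the probe's own value and the lowest signal among probes well above background. Leaving out any single array kept the call, with differences of -9.66 to -9.15. With the percent of probes detected per array as a covariate the difference was -7.77 with an adjusted p of 0.21, and that fit called 0 of 46 members and 5 of 20620 genes.

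Psmb5, the subunit with the chymotrypsin-like site, was also lower without overlap. It measured -6.35, -0.37, -2.96, -1.53 and -1.02 on GFP-RFP- arrays and -7.95, -6.78, -8.39, -10.62 and -8.5 on GFP-RFP+ arrays, where 3 of 5 were well above background. The GFP-RFP- arrays spread widely, with replicate 1 near the regulatory cells. The log2 difference was -6.00 ± 1.29 (SE, limma adjusted p = 0.033). The call was lost without any of 7 arrays (GFP-RFP- 2, 3, 4 and 5 and GFP-RFP+ 1, 2 and 5), at adjusted p of 0.051 to 0.076, and with the detection covariate, at -4.27 and 0.54.

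Psmd11, another non-ATPase subunit of the cap, measured -0.35, 0.04, -0.3, -0.43 and -0.36 on GFP-RFP- arrays. On GFP-RFP+ arrays it measured -9.97, -8.48, -1.34, -10.06 and -11.15, and only replicate 3 was well above background. The GFP-RFP- arrays were close together, and replicate 3 of the regulatory cells stood just below them. The log2 difference was -7.92 ± 1.91 (SE, limma adjusted p = 0.045). The call was lost without any of 12 arrays (GFP-RFP- 1 to 5, GFP+RFP- 1, 3 and 5, GFP-RFP+ 1, 2 and 5 and GFP+RFP+ 3), at adjusted p of 0.053 to 0.11, and with the detection covariate, at -2.35 and 0.68. In GFP+RFP+ cells, by contrast, it measured -5.43, -1.24, 1.41 and -2.51 and was detected on 4 of 4 arrays.

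The other members were not called. All 7 tested alpha genes and all 7 constitutive beta genes had estimates below 0, with medians of -2.64 and -4.61. So did 9 of 11 non-ATPases (median -2.36), 5 of 6 ATPases (median -1.73), all 3 cap chaperones (median -3.34) and all 4 core chaperones (median -1.48). Psmc5, an ATPase of the cap, did not overlap between the groups (-5.52 ± 2.11 SE, limma adjusted p = 0.15), which made 4 members lower without overlap beside 2.58% of all genes, and 0 higher, beside 4.09%.

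**Figure D3:**
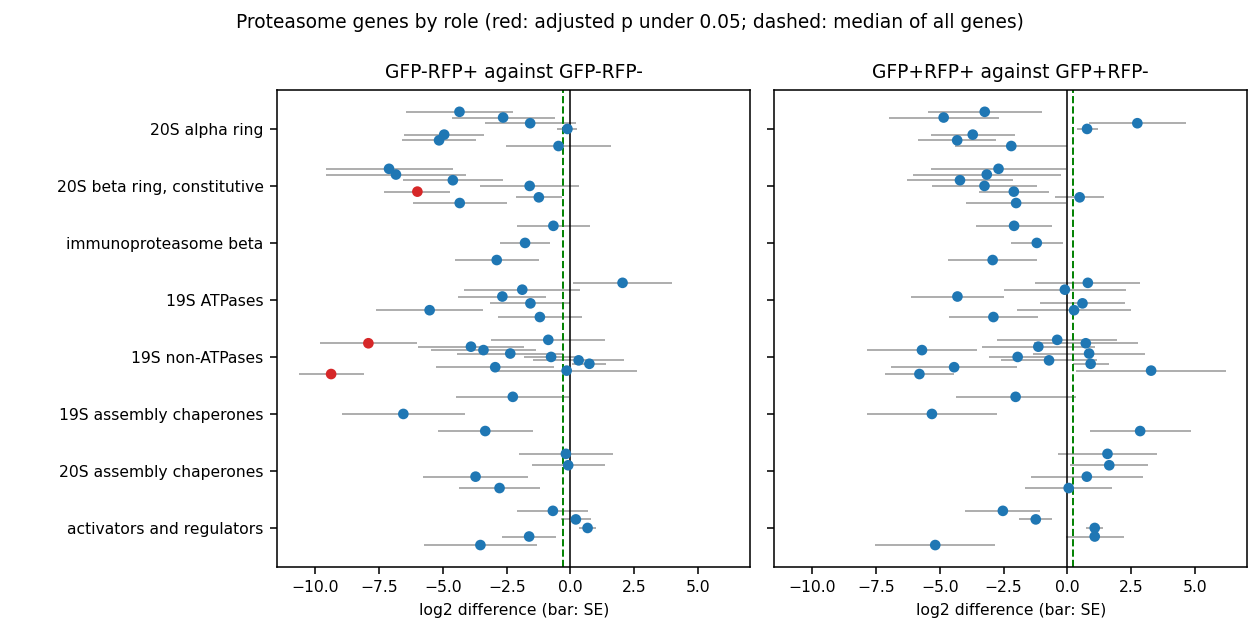
Log2 difference (horizontal axis, bars are SE) of each of the 46 tested members, by role, in GFP-RFP+ against GFP-RFP- cells (left) and GFP+RFP+ against GFP+RFP- cells (right), with red points for an adjusted p under 0.05 and a dashed green line at the median of all genes. The 3 red points, Psmb5, Psmd11 and Psmd8, are in the left panel.

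The same question in IL-2 producers (GFP+RFP+ set against GFP+RFP- cells) gave no called member, beside 0.204% of all genes. Estimates were below 0 for 29 of 46 members (63%), beside 44.1% of genes, with a median of -1.60 against 0.22. At an unadjusted p under 0.05 there were 8 members (17.4%), 7 of them lower, beside 17.4% of all genes. With normexp background correction, which calls 23.7% of all genes here, 4 members were called. Without the arrays under 30% detected 1 was called (Psma6), and without GFP+RFP- replicate 4 another (Psmd8), beside 0.281% and 1.45% of all genes.

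Psmd8 again had the smallest p. It measured -2.98, -2.89, -1.16, -10.58 and -1.64 on GFP+RFP- arrays, of which replicate 4 was not well above background, and -9.29, -9.54, -8.7 and -11.05 on the 4 GFP+RFP+ arrays, where it was not well above background on any. The groups overlapped through that replicate. The log2 difference was -5.80 ± 1.35 (SE, limma adjusted p = 0.075). No least fold is given, because GFP+RFP- replicate 4 was itself not well above background. Without that replicate the difference was -7.48 with a limma adjusted p of 1.6e-05.

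Psma6, an alpha subunit, measured -0.45, -0.42, -0.75, -0.14 and -0.12 on GFP+RFP- arrays and 0.96, -7.09, -7.36 and -5.29 on GFP+RFP+ arrays. Replicate 1 of the latter was the highest of all. The difference was -4.32 ± 1.53 (SE, limma adjusted p = 0.17), and it was called, at -6.21 and 0.017, without the 3 arrays under 30% detected (GFP+RFP+ 1 and GFP-RFP+ 1 and 4).

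Averaged over both green states (RFP+ against RFP-), 6 members were called, 5 lower and 1 higher. That is 13% of 46, beside 13.2% of all genes, while 4.63% of all genes were called lower and 8.6% higher. With the percentile over all probes, normexp, quantile normalization or the authors' processed values, 25.4% to 38% of genes and 17.4% to 21.7% of members were called. Psmd8 was lower by -7.59 ± 0.93 (SE, limma adjusted p = 0.00046), and it was detected on 9 of 10 RFP- arrays and 0 of 9 RFP+ arrays. Psmb5 was lower by -4.05 ± 0.94 (SE, limma adjusted p = 0.014). With the detection covariate none of the 46 was called, and Psmd8 had -6.44 and an adjusted p of 0.051. Within slide 1, which held 8 arrays with 2 of each group, 1 member was called, beside 0.732% of genes. Slides 2 and 3 each held a group with a single array, so only medians are given. Over members these were -2.57 and -1.88, against 0.47 and -0.43 for all genes. Estimates were below 0 for 38 of 46 members (82.6%), beside 52.4% of genes, and the median was -1.55 against -0.08. At an unadjusted p under 0.05 there were 18 members (39.1%), beside 30.9% of genes.

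Both alpha subunits that were called were lower. Psma6 was lower by -4.74 ± 1.05 (SE, limma adjusted p = 0.012). In the green-negative cells it measured -0.36, -1.37, -1.47, -3.58 and -1.5 on GFP-RFP- arrays against -8.27, -7.79, -2.48, -10.03 and -5.48 on GFP-RFP+ arrays. Only GFP-RFP+ replicate 3 came within the range of the RFP- arrays there. Psma5 was lower by -4.33 ± 1.14 (SE, limma adjusted p = 0.022). It ranged from -11.03 to -1.68 (median -4.91) on the 10 RFP- arrays, 8 of them well above background. On the 9 RFP+ arrays it ranged from -11.28 to -7.85 (median -9.94) and was detected on none. Psma5 was not called without the 3 arrays under 30% detected (adjusted p 0.064) or with normexp background correction, at -1.77 and 0.066.

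Psmd5, a chaperone that holds an intermediate of the cap, varied widely within groups. It measured -0.72, -0.84, -0.75, -1.49 and -12.05 on GFP-RFP- arrays and -1.28, -11.54, -10.5, -0.46 and -1.7 on GFP+RFP- arrays. On GFP-RFP+ arrays it measured -9.98, -10.26, -5.8, -11.39 and -11.19, and on GFP+RFP+ arrays -9.37, -10.66, -10.44 and -11.14. It was well above background on 7 of 10 RFP- and 1 of 9 RFP+ arrays, so the groups overlapped through 3 RFP- arrays. The difference was -5.93 ± 1.75 (SE, limma adjusted p = 0.035), and the call was lost without any of 12 arrays (GFP-RFP- 1 to 4, GFP+RFP- 1 and 5, GFP-RFP+ 1, 2 and 5 and GFP+RFP+ 1, 3 and 4), at adjusted p of 0.053 to 0.067.

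Psme3, the nuclear activator subunit known as PA28 gamma, was the one member called higher. It measured 2.26, 1.98, 2.02, 2.39 and 2.82 on GFP-RFP-, 2.11, 2.28, 2.33, 2.65 and 2.19 on GFP+RFP-, 3.0, 3.34, 2.62, 2.56 and 3.32 on GFP-RFP+ and 3.81, 2.81, 3.4 and 3.49 on GFP+RFP+ arrays. Among green-positive cells every RFP+ array was above every RFP- array, beside 6.34% of all genes higher without overlap there. The pooled difference was 0.87 ± 0.24 (SE, limma adjusted p = 0.026), and in green-positive cells it was 1.07 ± 0.34 (adjusted p = 0.14). Before scaling the pooled difference was -0.35, while the percentile used for scaling fell by 1.22, so the rise is one relative to the other detected probes. With quantile normalization it was 0.26 (adjusted p = 0.43), with the authors' processed values 0.25 (adjusted p = 0.45), and without GFP+RFP+ replicate 1 it was 0.8 (adjusted p = 0.052) and without replicate 4 it was 0.87 (adjusted p = 0.05).

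**Figure D4:**
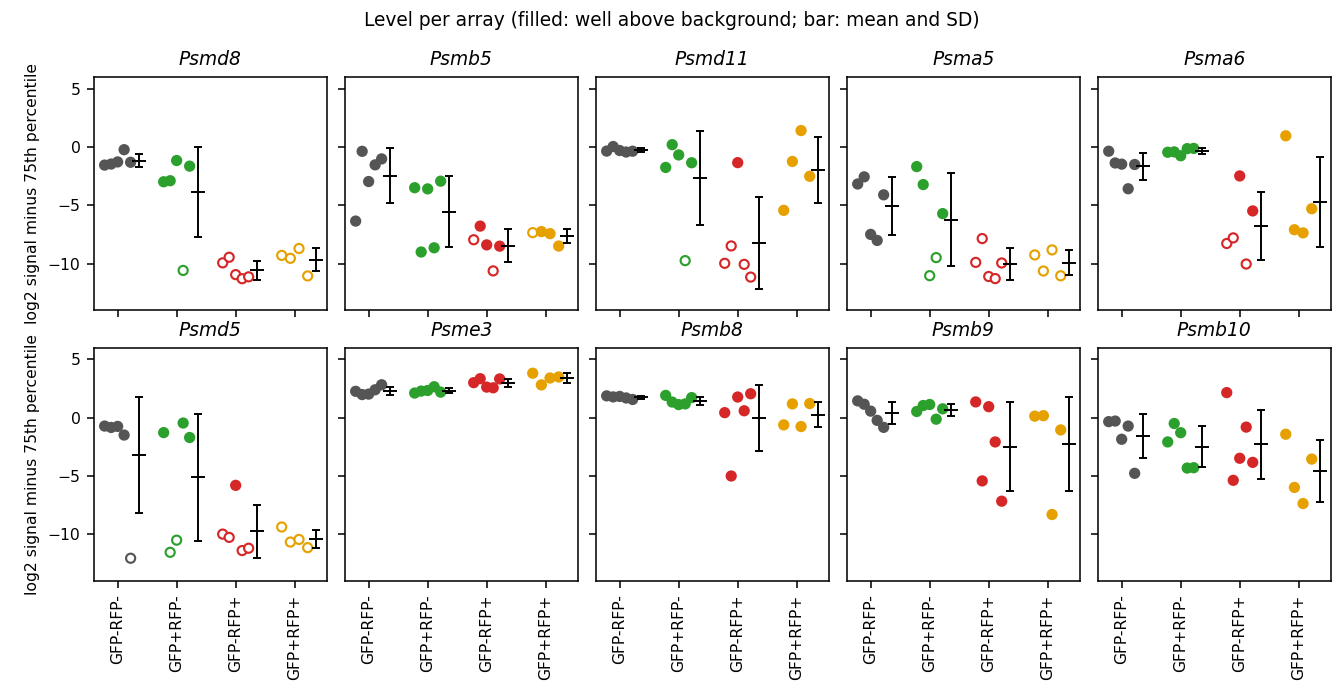
Level on each array (vertical axis, log2 signal minus the 75th percentile) of 10 members in the 4 reporter groups, with filled points where the probe was well above background and bars for the mean and SD. Psmd8 is filled on all GFP-RFP- arrays and open on all 9 RFP+ arrays, and Psme3 is at 1.98 or more on every array.

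The green reporter asked how IL-2 producers differ from other cells of the same red state, and no member was called for it. In RFP- cells (GFP+RFP- against GFP-RFP-) 0 of 46 members were called and 2 (4.35%) had an unadjusted p under 0.05, beside 0.0097% and 5.14% of all genes. The smallest p belonged to Psmb5 (-3.08 ± 1.29 SE, limma adjusted p = 0.95), to Psme4, an activator (-2.38 ± 1.07, adjusted p = 0.97), and to Psmd8 (-2.69 ± 1.27, adjusted p = 0.97). Psma7, an alpha subunit, was higher without overlap, at -0.24, 0.01, 0.37, 1.04 and -0.33 on GFP+RFP- against -1.06, -2.05, -0.94, -2.58 and -8.87 on GFP-RFP- arrays, beside 1.69% of all genes higher without overlap. Its difference of 3.27 ± 2.07 (SE) had an adjusted p of 1 in limma. Estimates were below 0 for 26 of 46 members (56.5%), beside 51.3% of genes, and the median was -0.20, against -0.02 for all genes.

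In RFP+ cells (GFP+RFP+ against GFP-RFP+) 0 of 46 members were called and 1 (2.17%) had an unadjusted p under 0.05, beside 0.00485% and 5.4% of all genes. That one was Psmd11, whose values are given above (6.26 ± 2.03 SE, 95% interval 1.94 to 10.58, limma adjusted p = 0.76). Psmd12, a non-ATPase subunit of the cap, followed at 4.66 ± 2.21 (adjusted p = 0.91) and Psme2 at -1.19 ± 0.64 (adjusted p = 0.92). Estimates were below 0 for 14 of 46 members (30.4%), beside 30.8% of genes, with a median of 0.85 against 0.41 for all genes. The interaction, which tests whether the red difference depends on the green state, called 0 of 46 members, beside 0.0097% of genes, and 2 members (4.35%) had an unadjusted p under 0.05, beside 4.92%. Estimates were below 0 for 15 members (32.6%), beside 36.4% of genes. Its smallest p belonged to Psmd11 (8.65 ± 2.79 SE, limma adjusted p = 0.94), Psmd9 (6.19 ± 2.71, adjusted p = 1) and Psmb5 (3.90 ± 1.89, adjusted p = 1). The 4 groups are shared among these comparisons.

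Transcripts of the 3 immunoproteasome genes were detected in all 4 populations, and none of the 3 was called in any comparison. The assembled complex was not measured. Psmb8, the inducible counterpart of Psmb5, measured 1.87, 1.78, 1.82, 1.69 and 1.56 on GFP-RFP- and 1.91, 1.34, 1.12, 1.18 and 1.72 on GFP+RFP- arrays. It measured 0.43, -5.0, 1.77, 0.59 and 2.05 on GFP-RFP+ and -0.62, 1.18, -0.76 and 1.21 on GFP+RFP+ arrays. The RFP- arrays all lay between 1.12 and 1.91, whereas GFP-RFP+ replicate 2 fell far below the rest. Its difference was -1.78 ± 0.97 (SE, limma adjusted p = 0.28) in green-negative, -1.20 ± 1.03 (adjusted p = 0.57) in green-positive cells and -1.49 ± 0.71 (adjusted p = 0.16) over both. Without GFP-RFP+ replicate 2 the first of these was -0.54 and the last -0.87. Psmb8 was called with the authors' processed values, at -1.39 and an adjusted p of 0.049.

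Psmb9, the counterpart of Psmb6, measured 1.44, 1.15, 0.56, -0.23 and -0.83 on GFP-RFP-, 0.53, 1.04, 1.13, -0.13 and 0.76 on GFP+RFP-, 1.35, -5.42, 0.94, -2.08 and -7.16 on GFP-RFP+ and 0.13, 0.17, -8.3 and -1.05 on GFP+RFP+ arrays. Values of -5.42 or lower appeared on 3 RFP+ arrays and on no RFP- array. The difference was -2.89 ± 1.64 (SE, limma adjusted p = 0.30) in green-negative, -2.93 ± 1.74 (adjusted p = 0.39) in green-positive cells and -2.91 ± 1.20 (adjusted p = 0.11) over both, and the last was called with the slide as a block (-3.17, adjusted p = 0.046) or the scan day (-3.34, adjusted p = 0.042). Psmb10, the counterpart of Psmb7, measured -0.34, -0.29, -1.85, -0.72 and -4.77 on GFP-RFP-, -2.08, -0.5, -1.29, -4.32 and -4.29 on GFP+RFP-, 2.15, -5.37, -3.48, -0.81 and -3.83 on GFP-RFP+ and -1.42, -5.98, -7.36 and -3.55 on GFP+RFP+ arrays. All 4 groups overlapped. Its difference was -0.67 ± 1.42 (SE, limma adjusted p = 0.82) in green-negative cells, where it turned positive under quantile normalization (0.1) and the percentile over all probes (0.63), and -2.09 ± 1.5 (adjusted p = 0.49) in green-positive cells. Over both it was -1.38 ± 1.03 (adjusted p = 0.38), and -2.89 (adjusted p = 0.046) without the 3 arrays under 30% detected. For the green reporter the 3 genes had differences of -0.29, 0.25 and -0.90 in RFP- and 0.29, 0.21 and -2.31 in RFP+ cells, in the order Psmb8, Psmb9, Psmb10, all with adjusted p of 0.93 or more. The intervals stayed wide: for Psmb9 in green-negative cells the 95% interval ran from -6.40 to 0.61.

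The class I presentation genes that work downstream of the immunoproteasome were not called either. Of 14 listed, 13 were tested, and 0 were called in each of the 6 comparisons, with 0 to 2 at an unadjusted p under 0.05. The smallest p in GFP-RFP+ against GFP-RFP- cells belonged to Tapbpl, a peptide editor (-4.20 ± 2.03 SE, limma adjusted p = 0.23), and Nlrc5, an activator of class I genes (-2.71 ± 1.36, adjusted p = 0.24). Other genes of proteasome assembly, ubiquitin supply and shuttling were also listed (30 genes, 27 on the array, 25 tested). None was called in GFP-RFP+ against GFP-RFP- cells, where 21 of 25 estimates were below 0 with a median of -1.42, nor in the other single comparisons. The smallest p in the first of these belonged to Ubqln2 (-4.10 ± 1.27 SE, limma adjusted p = 0.091) and Rad23b (-8.00 ± 2.52, adjusted p = 0.093). Over both green states 2 of 25 were called, beside 13.2% of all genes. Both were lower (4.63% of all genes were) and both are ubiquilins, which carry ubiquitin-tagged proteins to the proteasome: Ubqln4 at -6.31 ± 1.54 (SE, limma adjusted p = 0.017) and Ubqln2 at -3.23 ± 0.93 (adjusted p = 0.032).

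Repeated and neighbouring probes show how much of this spread arises within an array. Psme1 was spotted 10 times, and its 9 to 10 usable spots had a median SD of 0.06 per array (0.39 at most, on GFP+RFP+ replicate 4), against an SD of 2.33 between the 19 arrays. Psmc2, an ATPase of the cap, has 2 overlapping probes whose levels correlated at r = 0.999 over the 19 arrays, differed by at most 0.34 and were detected on the same arrays, while the level itself ran from -11.33 to -2.05. Both probes read the same labelled cDNA, so this says nothing about the steps before hybridization. Probes at other places of a transcript followed each other less. The second probe of Psmb5, printed above, had r = 0.94 with the first and was detected on all 5 GFP-RFP- arrays, on 4 of 5 GFP+RFP- arrays and on none of the 9 RFP+ arrays. For Psme2 the second probe had r = -0.35 with the first: it was detected on 2 of 5 GFP-RFP+ arrays, where the first was detected on 5 of 5. For Psmb9, a probe of another transcript was detected on 5 of 19 arrays, and the probe reported here on all 19.

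**Figure D5:**
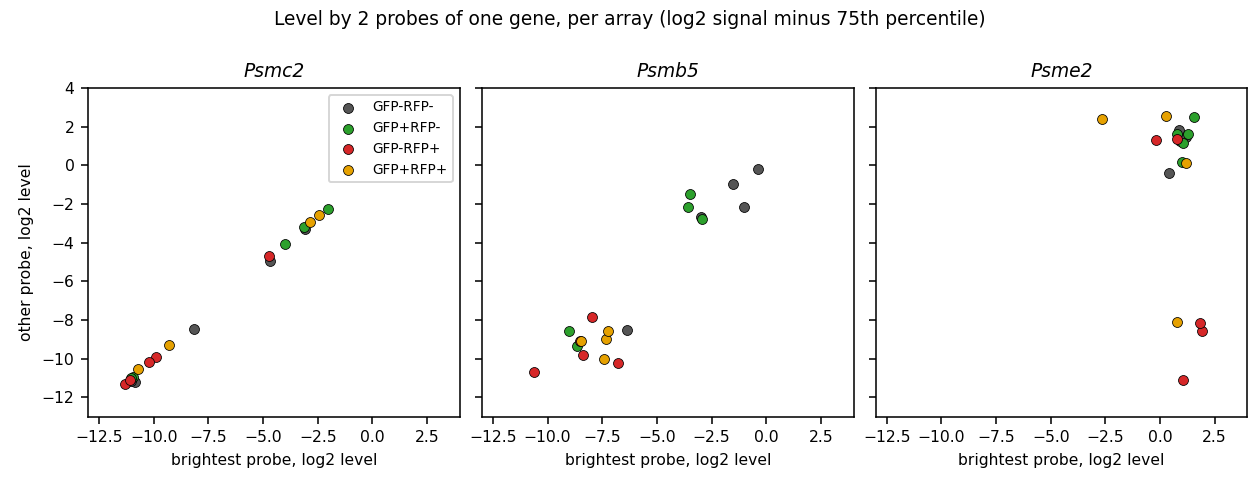
Level of a second probe (vertical axis) against the brightest probe (horizontal axis) of Psmc2, Psmb5 and Psme2, both as log2 signal minus the 75th percentile, one point per array coloured by reporter group. The overlapping Psmc2 probes fall on one line, and the second Psme2 probe is at -8.13 or lower on 3 GFP-RFP+ arrays and 1 GFP+RFP+ array.

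Promoters were searched because many proteasome genes are known targets of the factors Nrf1 and Nrf2, which bind antioxidant response elements, and the immunoproteasome genes of interferon. RefSeq windows of GRCm38.p6 (250 bases before to 50 after each start) were found for 40 of 48 members. On either strand, the core TGACNNNGC was in 14.0% of the 43 member windows and 12.4% of all 32851 windows, with matches in Psmb5, Psmb6, Psmc6, Psmd9, Psmd12 and Psme4. The core of the interferon-stimulated response element was in 11.6% of member windows (Psmb3, Psmd4, Psmd9, Psme1 and Psmg4) and 3.44% of all, and the CCAAT box in 32.6% and 37.4%. Psmb5, which was lower in RFP+ cells, and Psmb6, which was detected on all 19 arrays, both hold the first core, in capitals, in the 110 bases before their starts (chr14:54617996-54618105, reverse strand, and chr11:70525247-70525356, forward strand).
Psmb5: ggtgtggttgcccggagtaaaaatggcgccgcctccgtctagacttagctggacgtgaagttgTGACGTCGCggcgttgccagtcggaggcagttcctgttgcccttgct
Psmb6: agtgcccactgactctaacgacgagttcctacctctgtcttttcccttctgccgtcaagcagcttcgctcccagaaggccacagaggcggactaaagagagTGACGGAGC
The match is a description of the letters, and binding was not measured.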

How the data were processed

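RNA of 19 samples was amplified by a global PCR of cDNA, labelled with Cy3 and hybridized to one-colour Agilent arrays, per the labels' protocols. The scanner files deposited by the authors hold, per the file headers, linear intensity values that Feature Extraction 10.7.3.1 wrote, with background subtracted from a fitted surface and no scaling between arrays. Its flags (well above background, saturated, outlier) were used as given, and no member spot was saturated. The authors also deposited processed log2 values, and how these were normalized is not given here. Their column medians were 3.21 to 3.23, and their direction is that of the scanner signal (r = 0.949 to 1 over probes).

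From the intensity values, 3296 outlier spots were left out, repeated spots averaged, and log2 signal was centred on each array's 75th percentile over the 6612 probes detected above background on every one of the 19 arrays. Genes took RefSeq symbols by accession for 27235 probes and file names for 28446. Coordinates of probes are mm9. limma 3.58.1 in R 4.3.3 fitted 4 group means, with Benjamini-Hochberg adjustment over 20620 genes, and intervals used 15 residual degrees of freedom. The fit was tested on simulated data with independent normal noise per gene and no detection limit. That test does not cover probes whose signal falls to background. Figures used Python 3.11.15, matplotlib 3.10.9 and pandas 2.3.3. The number of arrays limits the precision.

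The members, lists and tests were chosen with earlier results of these data known. Values are given for Psmb8, Psmb9 and Psmb10 in each comparison, for each called member and otherwise for the 3 with the smallest p, and of the 2 lists of other genes for those called and up to 2 with the smallest p. Psmc5 and Psma7 were named after their values were seen. Alternatives were other scalings and background corrections, filters and probe rules, blocks for replicate number, slide and scan day, fits within slides, a covariate for detection, leaving out arrays, and only the groups compared. The labels do not say whether equal replicate numbers pair the samples, and the main fit used no pairing. Deviations from group means correlated at r = -0.074 to 0.093 (median 0.013) in the 27 same-numbered pairs. In the 108 other pairs r was -0.269 to 0.184 (median 0). Correlations near 0 cannot show that samples are unpaired.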

Additional observations from a re-analysis of the deposited data

Results flagged for a closer look

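In 15 of 64 groups of values checked, 1 array lay far outside the rest of its group, measured as its gap to the nearest other array over the range of the group. The cut-offs flag about 1 in 20 such groups where values are normal. Many of these values fall to the detection limit, so that rate does not apply and the 15 are only a description. Levels not well above background have no order among themselves, and some flagged values are of that kind. Genes on one array are not independent either. No cause was tested.

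GFP+RFP- replicate 4 was the lowest of its group in the median over members (-7.73, the others -2.2 to -1.5), in Psmd8 (-10.58, the others -2.98 to -1.16) and in Psmd11 (-9.74, the others -1.75 to 0.2). GFP-RFP+ replicate 3 was the highest of its group in the median over members (-2.91, the others -8.79 to -7.76), in Psmd11 (-1.34, the others -11.15 to -8.48) and in Psmd5 (-5.8, the others -11.39 to -9.98). These arrays had 30.17% and 39.4% of probes well above background, the lowest and the highest shares in their groups.

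GFP-RFP- replicate 5 was lowest in Psmd12 (-7.28, the others -1.41 to 0.08) and in Psmd5 (-12.05, the others -1.49 to -0.72), and replicate 4 was highest in Psmd8 (-0.23, the others -1.55 to -1.28). GFP+RFP+ replicate 4 was lowest in Psmb9 (-8.3, the others -1.05 to 0.17) and in Psmd12 (-6.98, the others 0.64 to 1.13), and replicate 5 was lowest in Psmb5 (-8.49, the others -7.43 to -7.25). Psmb8 was lowest on GFP-RFP+ replicate 2 (-5, the others 0.43 to 2.05), and Psmd9 was highest on GFP-RFP+ replicate 1 (-7.17, the others -11.07 to -10.01). Psmd12 was highest on GFP+RFP- replicate 3 (0.57, the others -0.07 to 0.09).

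Psma8, which the filter left out of the tests, was well above background on 1 array, GFP+RFP+ replicate 3.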

How the results depend on the processing

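Psmd8 in GFP-RFP+ against GFP-RFP- cells kept its direction under every alternative that tested it. Apart from the fits within slides 2 and 3, it kept its call under all but the detection covariate. Within those slides, where a group had a single array, its difference was -8.61 and -9.9. In that comparison 3 members were called, against 5 with the percentile over all probes, 5 with normexp, 6 with quantile normalization and 6 with the authors' processed values. There was 1 without the arrays under 30% detected, beside 0.131% of genes, and 0 with the detection covariate. The filter for detection on all arrays left 11 members, without Psmd8, Psmb5 and Psmd11. It called 0 of these, beside 10.3% of 5799 genes. Within slide 1 there was 1 member, beside 0.422% of genes. Leaving out 1 array gave 1 to 5, and a median over members of -3.02 to -1.87. The median of -2.31 was -4.6 within slide 2, but -0.75 and -1.08 within slides 3 and 1. It was -0.67 over the 11 members left by detection on all arrays. With the percentile over all probes it was -1.0, with normexp -1.23 and with the covariate -1.38. Genes called numbered 351, against 4030, 4749, 3520 and 3643 in those 4 scalings, 5 with the covariate and 85 to 1166 with 1 array left out.

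For GFP+RFP+ against GFP+RFP- cells 0 members were called, against 4 with normexp and 0 to 1 with 1 array left out. With detection on all arrays 1 of 11 tested members was called, beside 12.9% of genes. Without the arrays under 30% detected there was 1, beside 0.281% of genes. Genes called numbered 42, against 4888 with normexp and 2 to 300 with 1 array left out. Over both green states 6 were called, against 10 with normexp, 11 without a filter, 12 with the slide as a block and 0 with the covariate. The 12 are 26.1% of members, beside 18.9% of genes. With detection on all arrays, only 11 members were tested and 2 were called (18.2%), beside 29.4% of 5799 genes. Within slide 1 there was 1 member, beside 0.732% of genes, and 4 to 11 with 1 array left out. Genes called numbered 2728, against 6329 with the percentile over all probes, 7827 with normexp, 5247 with quantile normalization, 5456 with the authors' processed values, 9952 without a filter, 26 with the covariate and 1553 to 3825 with 1 array left out. The green comparisons and the interaction called 0 members under every alternative run. Whether equal replicate numbers pair the samples is not known. With the replicate block 1 member was called in the first comparison, 0 in the second and 7 over both green states. The shares of all genes called there were 0.96%, 0.0388% and 11.9%.

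These differences changed sign. None was called with the settings of the report or where its sign changed, though Psmb10 over both green states was called at -2.89 without the arrays under 30% detected. In GFP-RFP+ against GFP-RFP- cells, Psmb10 was 0.63 with the percentile over all probes, 0.1 with quantile normalization, 0.22 with the authors' processed values, and 0.43 and 2.44 within slides 1 and 3, and Psmb9 was 0.14 within slide 1. In GFP+RFP+ against GFP+RFP- cells, Psmb9 was 0.21 with the mean of probes and Psmb10 0.74 within slide 3. In GFP+RFP- against GFP-RFP- cells, Psmb9 was -1.05 with the mean of probes, -0.17 and -0.01 within slides 1 and 2 and -0.3 with the covariate, Psmb5 was 1.11 within slide 1, and Psmb8 and Psmb10 were 0.16 and 0.47 within slide 3. In GFP+RFP+ against GFP-RFP+ cells, Psmb8 was -0.17 with the percentile over all probes, -0.02 with the authors' processed values, -0.14 with the replicate block, and -0.82 and -0.11 within slides 1 and 3. Psmb9 there was -0.24, -0.55 and -0.82 with the percentile over all probes, quantile normalization and the authors' processed values, 0 and -0.1 with slide and scan day as a block, and -0.99 and -2.89 within slides 1 and 2, and Psme2 was 0.77 with the mean of probes. Over both green states, Psmb10 was 1.59 within slide 3. For the interaction, Psmb10 was 0.46 with the covariate, Psmb5 -0.24 within slide 1, Psmd9 -0.18 within slide 3, and Psmb8 -0.17, -0.49 and -0.27 with the percentile over all probes and within slides 1 and 3. Psmb9 was 0.11 with normexp, 2.73 with the mean of probes, 1.99 within slide 3, 0.91 with the covariate and 0.57 without the arrays under 30% detected. With 1 array left out, signs also changed for Psmb10 in the first comparison (-1.78 to 0.10), Psmb9 in GFP+RFP- against GFP-RFP- (-0.06 to 0.50), Psmb8 (-0.96 to 0.80) and Psmb9 (-0.96 to 2.23) in GFP+RFP+ against GFP-RFP+, and Psmb8 (-0.67 to 1.1) and Psmb9 (-1.20 to 1.98) in the interaction. The cause was not tested. Members near the detection limit have only a bound, and 4 or 5 arrays a group leave intervals of several log2 units.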
